A study of Homo sapiens with 6 samples.

Results

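The 10 genes described here encode S100 calcium-binding proteins and were chosen by symbol: S100A2, S100A4, S100A6, S100A8, S100A9, S100A10, S100A11, S100A13, S100A14 and S100P. All 10 symbols were found among the 24462 symbols of the count files. S100A4, S100A6, S100A10, S100A11 and S100A13 were grouped as migration-linked members, and S100A2, S100A8, S100A9, S100A14 and S100P as epithelial members. Expression was measured by QuantSeq, an RNA sequencing method that counts each mRNA at its 3′ end, in MDA-MB-231 cells, a human triple negative breast cancer line with a mesenchymal phenotype. There were 3 groups with 2 libraries each, all collected 48 h after transfection. One received a non-specific control mimic (NC mimic), one a miR-200a mimic, and one the miR-200a mimic together with an expression plasmid encoding ELK3, an ETS-family transcription factor. The labels give no dose, and the paper's methods give 100 nM for the miR-200a mimic and 30 ng for its ELK3 plasmid. The paper describes a Flag-ELK3 plasmid that held only the protein coding region of ELK3. The labels name a Hygro(+)-ELK3 plasmid, and whether the 2 are the same is not stated. The labels name no empty vector in the other groups, so plasmid DNA and ELK3 cannot be told apart. All libraries came from 1 cell line, and nothing in the labels says that the 2 libraries of a group came from separate cultures, so the p-values measure only the spread between these libraries.

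S100 proteins are small proteins with paired EF-hand motifs. Binding of calcium exposes a surface that lets them dock onto partners such as annexins and myosin, and some are also secreted and act on receptors such as RAGE (encoded by AGER) and TLR4. In carcinomas S100A4 is best known for its link with migration and metastasis, S100A10 for holding annexin A2 and plasminogen at the cell surface, and S100A8 and S100A9 for forming calprotectin in myeloid cells and stressed epithelium. Most genes of the family lie side by side on chromosome 1. In the GRCh38 annotation (GENCODE 29), 9 of the 10 members were on chromosome 1 between 151982915 and 153631360, and 7 of them, from S100A9 to S100A13, lay within 273.5 kb. S100P was on chromosome 4, from 6693069 to 6697170. The counts themselves were made on hg19, and these coordinates serve only to place the genes.

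The mature strand of the transfected miRNA is shown first, because its seed (bases 2 to 8, in capitals) sets which mRNAs it can pair with. The sequence is the RefSeq entry for GRCh38.p14, chr1:1167916-1167937, plus strand.
hsa-miR-200a-3p: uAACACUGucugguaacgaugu
The DNA letters that pair with this seed are CAGTGTT. The 3′UTRs of the members were short, from 71 to 630 nt with a median of 151 nt (longest annotated 3′UTR per gene). None of the 10 held CAGTGTT. Of the 11241 tested genes with an annotated 3′UTR, 21.8% held it, at a median length of 1396 nt. Of the 2857 whose 3′UTR lay within the length range of the members, 3.54% did. Their median length, 352 nt, was still above that of the members. The shorter match AGTGTT (6 letters) was present in 1 member, S100P, at positions 55 to 60 of its 127 nt 3′UTR, against 9.49% of tested genes in that length range. The stretch around this match is shown with the match in capitals.
S100P: aggcttcccaaaAGTGTTtgttggcaatta
Such letter matches are descriptions of the sequence and not binding sites.

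The 6 libraries held between 3055915 and 4868004 counts. Spread between the 2 libraries was widest in the group with the plasmid. Among the 2509 tested genes with a mean level at or above that of S100A13, the median absolute log2 difference between the 2 libraries was 0.0924 for NC mimic, 0.0655 for miR-200a and 0.255 for miR-200a plus ELK3. Levels are given as CPM, the count of a gene scaled to the size of its library. ELK3 stood at 152 ± 20.1 CPM (SD, n = 2) after the NC mimic, 103 ± 0.382 CPM after miR-200a and 87.7 ± 11.99 CPM where the label gives miR-200a plus ELK3. A higher ELK3 count was thus not seen under the plasmid label. If the plasmid carried no native ELK3 3′UTR, as the paper describes for its Flag-ELK3 construct, a count taken at the 3′ end may not see its transcript. The insert of the labelled plasmid is not stated, so the ELK3 count cannot check that label. Markers that MDA-MB-231 cells are known for (VIM, CD44, AXL and CAV1) were all detected, and summed to 3855 to 4142 CPM with NC mimic, 3846 to 4035 CPM with miR-200a and 2620 to 3457 CPM with miR-200a plus ELK3. Group means in that order were 2310, 2214 and 1405 CPM for VIM and 309, 316 and 207 CPM for CD44. Those of CAV1 were 591, 644 and 530 CPM. AXL went the other way, with its highest mean in the plasmid group (788, 767 and 896 CPM). VIM had 1854 and 956 CPM in the 2 plasmid libraries. ESR1 was at 0 in every library. The summed level of 6 epithelial markers (CDH1, EPCAM, CLDN3, CLDN4, CLDN7 and ESRP1) was 258 to 268 CPM with NC mimic, 345 to 351 CPM with miR-200a and 230 to 272 CPM with miR-200a plus ELK3. CLDN4 (group means 186, 234 and 195 CPM) and CLDN7 (64.1, 80.8 and 34.9 CPM) made up most of it. EPCAM had means of 10.9, 28.8 and 19.5 CPM and CDH1 of 0.111, 2.36 and 0.708 CPM. CLDN3 (1.59, 1.23 and 0.588 CPM) and ESRP1 (0.927, 0.927 and 0.118 CPM) were not higher with miR-200a. CDH1, CLDN3 and ESRP1 were read by few counts. The part of either marker list in the results that follow was not tested. The 6 myeloid markers summed to 5.92 to 10.2 CPM with ITGAM and MPO at 0 throughout, and of the 6 squamous markers 5 were at 0 and only KRT10 was counted.

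Of the 10 members, 6 were read by 251 counts or more in every library and 4 were near 0. S100A6 was the most abundant, with rank 11 of the 12650 genes tested by mean CPM. S100A11 had rank 143, S100A4 rank 174, S100A10 rank 214, S100A2 rank 961 and S100A13 rank 2509. Because each mRNA is counted once at its 3′ end, these CPM values were not divided by gene length. Reads of S100A11 may be shared with its pseudogenes S100A11P1 and S100A11P2, and S100A6, S100A11 and S100A13 overlap other genes on the opposite strand. Whether the counting used the strand is not given in the sources used here. In such bulk RNA, fewer cells of a kind and less RNA per cell cannot be told apart. The other 4 members, all from the epithelial group, were too low to test. S100A8 and S100A9 had 0 counts in all 6 libraries, which allows a level of up to 0.116 CPM (3 counts over the summed libraries, counting error only). S100P had between 0 and 2 counts per library and S100A14 between 1 and 7. Of the epithelial members, S100A2 was therefore the only one read well above 3 counts per library.

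**Figure D1:**
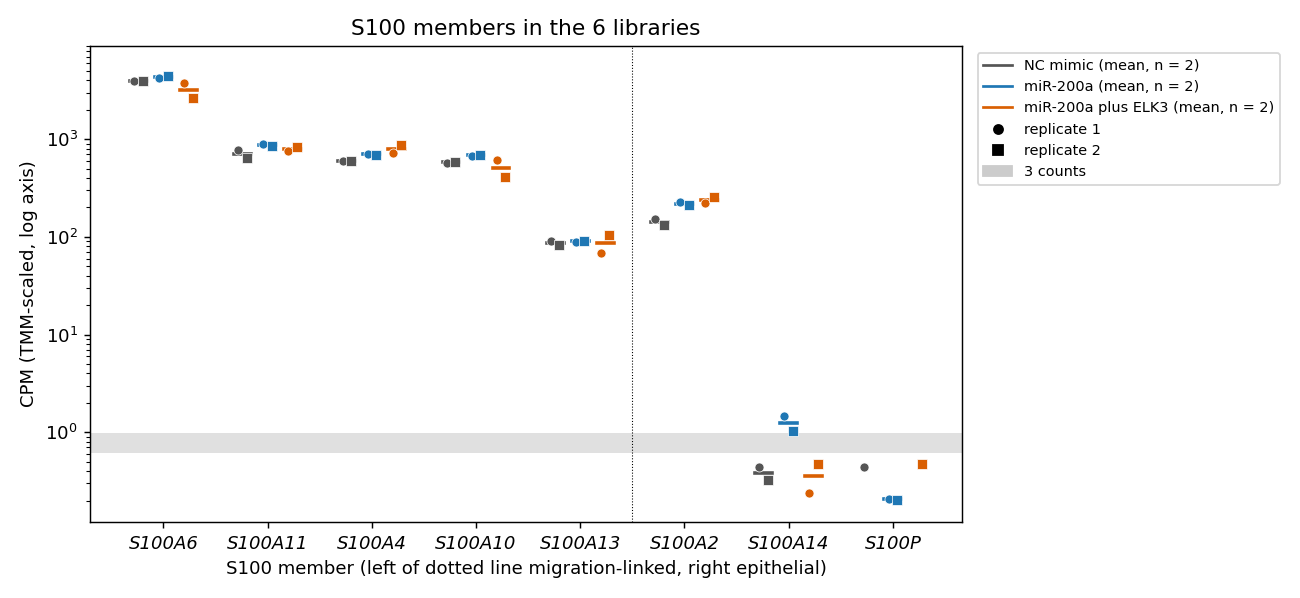
CPM (TMM-scaled, log axis) of 8 S100 members in each library, with circles for replicate 1, squares for replicate 2 and lines for the mean of 2 libraries; the grey band marks 3 counts (0.611 to 0.979 CPM) and counts of 0 are not drawn, so S100A8 and S100A9 are left out. S100A6 sat between 2642 and 4430 CPM, and S100A14 and S100P sat at the bottom. Among the migration-linked members, the orange squares and circles of S100A4, S100A6, S100A10 and S100A13 lay farther apart than those of the other groups. Those of S100A11 did not.

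The first comparison asked what the miR-200a mimic did to the members. Differences were tested with edgeR's quasi-likelihood test over all 6 libraries, with Benjamini-Hochberg adjustment over 12650 genes, and a gene was called at an adjusted p under 0.05. None of the 6 tested members was called, in a comparison in which 0.269% of all tested genes were. At an unadjusted p under 0.05 there were 2 members, S100A2 and S100A11, both higher, where 9.24% of all genes passed. DESeq2 and limma called 0 members as well. All 6 log2 fold changes were above 0, as were those of 5973 of the 12650 tested genes. The median of the 6 was 0.24, against -0.02 over all tested genes. In 5 of the 6 both miR-200a libraries lay above both NC mimic libraries, as they did for 2894 of the 12650 genes. Non-overlap of that kind, in either direction, was seen for 48.9% of all genes.

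S100A2, an EF-hand protein of basal epithelial cells and a known p53 target, had 152 and 133 CPM with NC mimic and 226 and 213 CPM with miR-200a. The 2 groups did not overlap. The log2 difference was 0.62 (SE 0.14), a fold of 1.54 with a 95% interval from 1.25 to 1.89, and the edgeR adjusted p was 0.117. Among the migration-linked members, S100A4 had 598 and 597 CPM with NC mimic and 713 and 695 CPM with miR-200a, a log2 difference of 0.24 (SE 0.12, edgeR adjusted p 0.613). S100A11, which binds annexin A1, had 775 and 646 CPM with NC mimic against 892 and 855 CPM with miR-200a, a log2 difference of 0.30 (SE 0.12, edgeR adjusted p 0.509). S100A10 and S100A6 also sat higher in both miR-200a libraries, at log2 differences of 0.25 and 0.14, while S100A13 overlapped at 0.06. S100A11 had a fold of 1.23 (95% interval 1.02 to 1.49), but its log2 difference was 0.17 without NC mimic replicate 2 and 0.44 without NC mimic replicate 1, so its place among the migration-linked members rests on these libraries.

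The number of members called in this comparison changed when miR-200a plus ELK3 libraries were left out of the fit. In the main fit these libraries share the estimate of spread with the rest, and the cause of the change was not tested. With only the NC mimic and miR-200a libraries in the fit, 5 of the 6 tested members were called, all higher (S100A2, S100A4, S100A6, S100A10 and S100A11), while the share of all genes called went from 0.269% to 7.89%. Leaving out replicate 1 or replicate 2 of miR-200a plus ELK3 also gave 5, with 7.51% and 7.71% of all genes called.

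In the second comparison, adding the plasmid to the mimic was set against the mimic alone. None of the 6 tested members was called by edgeR, where 12.9% of all tested genes were, and DESeq2 and limma called 0. At an unadjusted p under 0.05 there were 2, S100A6 and S100A10, both lower, against 30.6% of all genes. The median log2 fold change of the 6 was -0.10, against 0.02 over all genes. In 4 of the 6 the groups did not overlap, 3 lower (S100A6, S100A10 and S100A11) and 1 higher (S100A4), against 58.2% of all genes.

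S100A6, also called calcyclin, had 4252 and 4430 CPM with miR-200a and 3771 and 2642 CPM with miR-200a plus ELK3. Both libraries with the plasmid were lower, replicate 2 by far more than replicate 1. The log2 difference was -0.44 (SE 0.15, 95% interval -0.76 to -0.11, edgeR adjusted p 0.0776). S100A10, the annexin A2 light chain p11, followed the same order, with 677 and 693 CPM against 606 and 413 CPM, a log2 difference of -0.43 (SE 0.16, edgeR adjusted p 0.105). S100A4 went the other way: it had 720 and 865 CPM with the plasmid, a log2 difference of 0.17 (SE 0.12, edgeR adjusted p 0.366). S100A13, which takes part in the release of FGF1, had 89.3 and 91.5 CPM with miR-200a and 69.2 and 104 CPM with the plasmid. These last 2 values lie on either side of the miR-200a libraries.

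The size of each of these differences depended on which plasmid library was read. Between replicate 1 and replicate 2 of miR-200a plus ELK3, S100A6 changed by -0.51 and S100A10 by -0.55 on the log2 scale, and S100A13 by 0.59, each a larger difference than that of 81.5%, 84.2% and 86.4% of the genes at or above the S100A13 level. Without replicate 1, 3 members were called (S100A6 and S100A10 lower, S100A4 higher), and 35.7% of all genes. Without replicate 2, 4 were called, all lower (S100A6, S100A10, S100A11 and S100A13), and 22.1% of all genes. In both cases 1 library stood for the group and was assumed to vary like the others. The log2 difference of S100A6 was -0.73 without replicate 1 and -0.23 without replicate 2, and that of S100A13 was 0.19 and -0.42. For S100A4 the log2 difference was 0.29 without replicate 1 and 0.0022 without replicate 2, so the higher value rests on replicate 2. S100A6 was called lower with upper-quartile normalisation too (edgeR adjusted p 0.0490).

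The third comparison set miR-200a plus ELK3 against NC mimic and shares libraries with both of the others. S100A2 was called higher, the only one of the 6 tested members, where 12.9% of all genes were called in either direction. It had 223 and 258 CPM with miR-200a plus ELK3 against 152 and 133 CPM with NC mimic, and the 2 groups did not overlap. The fold was 1.69 (95% interval 1.37 to 2.08, log2 difference 0.75, SE 0.14, edgeR adjusted p 0.00845). The call was lost without NC mimic replicate 1 (adjusted p 0.0752) or replicate 2 (adjusted p 0.138), where 0.748% and 0.736% of all genes were called. It was also lost with limma on quantile-normalised log2(count + 1), at an adjusted p of 0.0774.

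S100A4 was just outside the threshold, with 720 and 865 CPM against 598 and 597 CPM, a fold of 1.33 (log2 difference 0.41, SE 0.12, edgeR adjusted p 0.0506). It was called higher in 3 of the 15 alternatives, with no filter and without either plasmid library. In the last 2 of these, 1 library stood for the plasmid group. Its log2 difference ran from 0.26 to 0.54 when 1 of the 6 libraries was left out. Both of its plasmid values lay above all 4 other libraries. At an unadjusted p under 0.05 there were 2 members, S100A2 and S100A4, both higher, against 30.6% of all genes. In 3 of the 6 the groups did not overlap, 2 higher and 1 lower (S100A6), against 56.7% of all genes. S100A6 was at 3206 ± 799 CPM against 3953 ± 42.7 CPM (SD, n = 2 each), a log2 difference of -0.30 (SE 0.15, edgeR adjusted p 0.195), and S100A10 at 509 ± 136 CPM against 577 ± 19.1 CPM. Without replicate 1 of miR-200a plus ELK3, 5 members were called in this comparison, with S100A6 and S100A10 lower and S100A2, S100A4 and S100A11 higher, and 35.6% of all genes were called. Without replicate 2, only S100A2 and S100A4 were called, beside 22.3% of all genes. The log2 difference of S100A6 was -0.58 without replicate 1 and -0.08 without replicate 2, and that of S100A10 was -0.48 and 0.06.

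**Figure D2:**
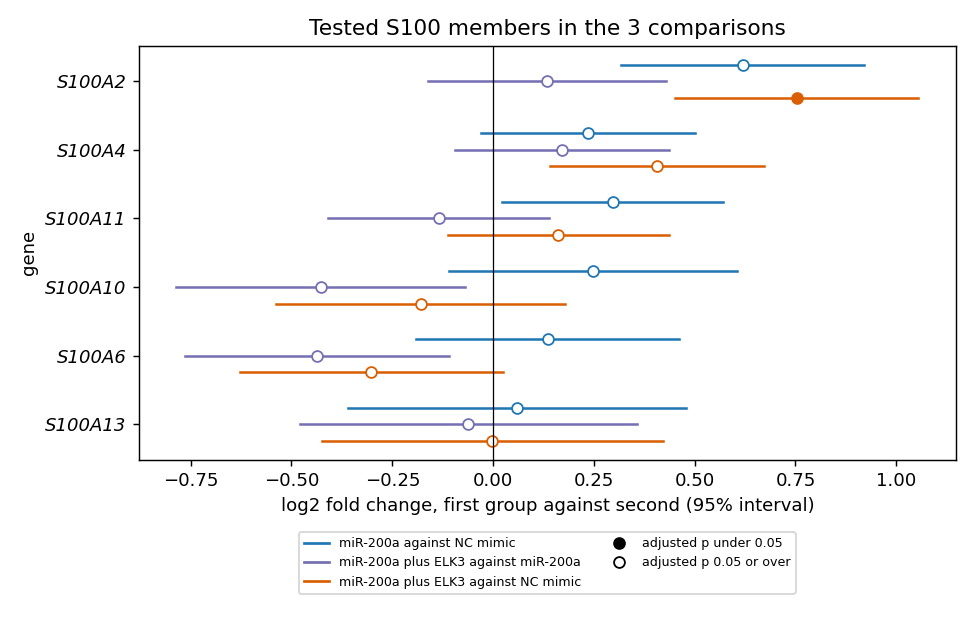
Log2 fold change (first group against second, x axis) of the 6 tested S100 members in the 3 comparisons, with bars for the 95% interval of the edgeR fit (n = 2 libraries per group) and filled points for an adjusted p under 0.05. The only filled point is S100A2 in miR-200a plus ELK3 against NC mimic, at 0.75, and the intervals of S100A6 and S100A10 lie below 0 only against miR-200a.

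Across the 3 groups, in the order NC mimic, miR-200a and miR-200a plus ELK3, the group means of S100A2 were 143 ± 13.8, 219 ± 9.60 and 241 ± 24.9 CPM, and those of S100A4 were 598 ± 0.354, 704 ± 12.3 and 793 ± 102 CPM (SD, n = 2 each). For both genes a difference between the last 2 groups did not pass the test. S100A6 and S100A10 had their highest mean with miR-200a and their lowest with the plasmid, without a call, and S100A11 stood at 711 ± 91.3, 874 ± 26.1 and 795 ± 55.6 CPM. S100A13 stayed between 69.2 and 104 CPM in all 6 libraries. Over the 6 libraries the log2 levels of S100A6 and S100A10 had a Pearson correlation of 0.97 and those of S100A2 and S100A4 one of 0.93, while S100A4 against S100A6 gave -0.70. These are descriptions of 6 points that share groups and libraries. Among the migration-linked members, S100A4 alone had its highest mean with the plasmid, as the epithelial member S100A2 did.

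Ratios of 2 genes within a library need no scaling between libraries. S100A4 counts were 15.1% ± 0.172 of S100A6 counts with NC mimic and 16.2% ± 0.753 with miR-200a (SD, n = 2 each), and 19.1% and 32.7% in replicates 1 and 2 of miR-200a plus ELK3. S100A10 was 34.4% and 35.0% of ANXA2, the annexin that it holds in a heterotetramer, with NC mimic. That ratio was 45.9% and 47.2% with miR-200a, and 42.4% and 22.0% with miR-200a plus ELK3. Replicate 2 of the plasmid group was at the extreme in both ratios, while replicate 1 was above the other groups in the first and between them in the second. The differences in these ratios were not tested. The 10 members together made up 0.604% and 0.605% of counts after NC mimic, 0.691% and 0.704% after miR-200a, and 0.614% and 0.501% in the plasmid group.

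**Figure D3:**
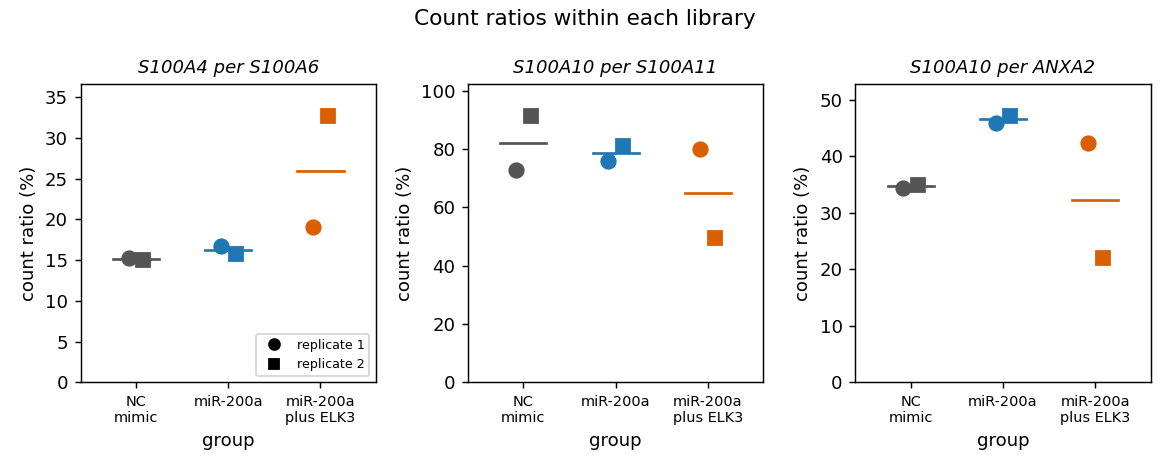
Count ratio in percent within each library (y axis, from 0) by group for S100A4 per S100A6, S100A10 per S100A11 and S100A10 per ANXA2, with circles for replicate 1, squares for replicate 2 and lines for the mean of 2. Replicate 2 of miR-200a plus ELK3 is highest for S100A4 per S100A6 (32.7%) and lowest in the other ratios (49.5% for S100A10 per S100A11 and 22.0% for S100A10 per ANXA2).

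S100A14, an epithelial member, was read by 2 and 1 counts after NC mimic, 7 and 5 counts after miR-200a and 1 and 2 counts in the plasmid group. Both miR-200a libraries held more than any other. Summed over a group and scaled to depth, the ratio of miR-200a to NC mimic was 3.11 with an exact 95% counting interval from 0.839 to 17.2, which includes 1. The ratio of miR-200a plus ELK3 to miR-200a was 0.287 (0.0519 to 1.06). With no filter on low counts, edgeR gave S100A14 adjusted p-values of 0.924 and 0.481 in these comparisons. A difference was not detectable at this depth. S100P, read by 2 counts in each group, gave no more than that.

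Of 11 other symbols that carry the S100 name, 4 passed the filter on low counts: S100A3, S100A5, S100A16 and S100PBP, the last of which encodes a binding protein of S100P. One was called, S100A3, an S100 protein of hair cuticle. Its counts were 38 and 47 after NC mimic, 98 and 83 after miR-200a and 103 and 109 after miR-200a plus ELK3, and it was 2.15-fold higher with miR-200a plus ELK3 than with NC mimic (log2 difference 1.11, SE 0.29, edgeR adjusted p 0.0333). That call was lost without either NC mimic library (adjusted p 0.2498 and 0.0750) or either miR-200a library (0.0768 and 0.0769), with the replicate number as a block (0.0500023), with the 2 compared groups alone (0.0799) and with limma (0.0897). S100A3 lies within S100A4 on the same strand in GENCODE 29 (chromosome 1, 153547329 to 153549372, inside 153543613 to 153550136), so how reads were divided between the 2 genes is uncertain. S100A16 had between 750 and 1236 counts per library and was not called. Of the remaining 7, S100A1, S100A7, S100A7A, S100A12 and S100G had 0 counts throughout, S100B 1 count in all and S100Z 17.

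Genes whose products meet S100 proteins were counted next, from a list of 24: annexins, membrane and cytoskeletal partners, plasminogen activators with a receptor, and cell surface receptors. Of these 23 were tested. None was called by edgeR for miR-200a against NC mimic, where 0.269% of all genes were. At an unadjusted p under 0.05, 4 were higher and 2 lower, against 9.24% of all genes in either direction. DESeq2 called 1 (MYH10), against 0.77% of all genes. For miR-200a plus ELK3 against miR-200a, 3 of 23 were called, all lower, and against NC mimic 3 of 23 were called, all lower. These counts stand beside the 12.9% of all genes called in each. The median log2 fold change of the 23 was -0.19 and -0.06 in these comparisons, against 0.02 and 0.01 over all genes.

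Among the 3 plasminogen genes, 2 were called against miR-200a and 1 against NC mimic. PLAT, tissue plasminogen activator, stood at 43.4 and 43.7 CPM after NC mimic, 56.3 and 55.0 CPM after miR-200a and 24.9 and 22.1 CPM after miR-200a plus ELK3. It fell by 1.24 on the log2 scale against miR-200a (SE 0.17, edgeR adjusted p 0.00293) and by 0.89 against NC mimic (edgeR adjusted p 0.0111). PLAUR, the urokinase receptor, was called lower against miR-200a, at a log2 difference of -0.62 (edgeR adjusted p 0.0231), and not against NC mimic, at -0.20. PLAU, urokinase itself, was not called, with 1132 and 1173 CPM with miR-200a and 838 and 305 CPM with the plasmid, where the 2 plasmid libraries stood far apart.

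Other partners gave 1 annexin and 2 cytoskeletal calls. ANXA4 had 30.9 and 40.1 CPM with miR-200a and 19.4 and 11.8 CPM with the plasmid (log2 difference -1.19, edgeR adjusted p 0.0217). MYH10, a nonmuscle myosin heavy chain, had 162 and 140 CPM after NC mimic, 86.8 and 94.1 CPM after miR-200a and 93.8 and 102 CPM in the plasmid group. It was called lower in the last group against NC mimic (log2 difference -0.63, edgeR adjusted p 0.0207), and its log2 difference between miR-200a and NC mimic was -0.74 (edgeR adjusted p 0.0715). IQGAP1, a scaffold of the cortical actin network, was called lower against NC mimic at -0.46 (edgeR adjusted p 0.0367), a call lost with the replicate number as a block (adjusted p 0.0653). ANXA2 had 1427 and 1879 CPM with the plasmid, above and below the NC mimic values of 1639 and 1687 CPM. The 2 receptors AGER and TLR4, which bind secreted S100 proteins, had group means of 2.20 to 6.08 CPM and were not called. Over the 15 alternatives, the calls against miR-200a held in 13 for PLAT and in 9 each for ANXA4 and PLAUR, and those against NC mimic in 13 for PLAT, 9 for MYH10 and 7 for IQGAP1. Leaving out either miR-200a library lost all 3 calls against miR-200a, and leaving out either NC mimic library lost all 3 against NC mimic and left PLAT alone against miR-200a. ANXA4 and PLAUR were also lost with the 2 compared groups alone (adjusted p 0.0560 and 0.0599) and with limma (0.0845 and 0.135). Leaving out replicate 1 of the plasmid group gave 14 partner calls in each comparison, where 35.7% and 35.6% of all genes were called, and leaving out replicate 2 gave 9 in each, where 22.1% and 22.3% were.

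**Figure D4:**
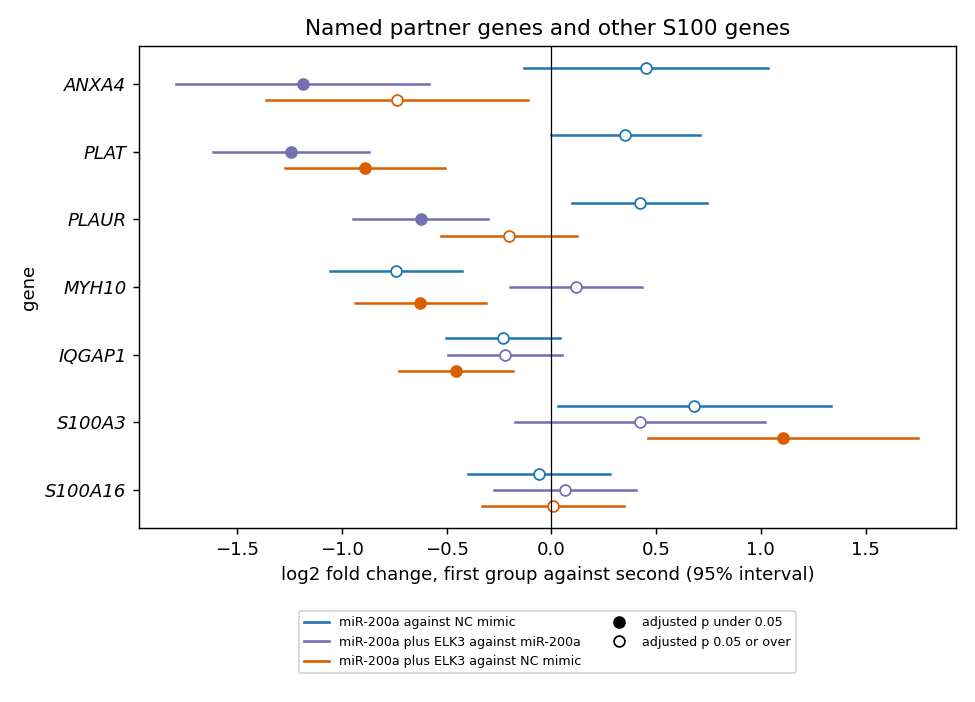
Log2 fold change (first group against second, x axis) with the 95% interval of the edgeR fit for 5 partner genes and for S100A3 and S100A16 (n = 2 libraries per group). Filled points mark an adjusted p under 0.05; filled points of partner genes lie below 0 and the filled point of S100A3 lies at 1.11.

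The start regions of the members were searched for letters that fit factors named in this setting, in windows of 250 bases before to 50 bases after each RefSeq start (GRCh38.p14, both strands). The 10 members had 15 such windows, some of which overlap, among 35116 in all. ETS factors such as ELK3 bind around CCGGAAGT, which was in none of the 15 windows and in 4.14% of all windows. The shorter CCGGAA, part of the former, was in 2 (S100A6 and S100A9), against 17.2%. The AP-1 letters TGACTCA were in 1 window, of S100A2, against 4.95%. CACCTG, an E-box that ZEB and SNAI repressors of epithelial genes are known to bind, was in 8 windows of 6 members (S100A2, S100A4, S100A8, S100A9, S100A14 and S100P), against 20.6%. The 3 windows of S100A8 overlap and hold the same match, so the windows with a match are not all separate sites. Stretches of S100A2 and S100A4, the members with the highest fold of miR-200a plus ELK3 against NC mimic, are shown with the matched letters in capitals, S100A2 at chr1:153565870-153565916 and S100A4 at chr1:153545945-153545990, both on the minus strand and in no annotated exon.
S100A2 (TGACTCA, 52 bases before the start): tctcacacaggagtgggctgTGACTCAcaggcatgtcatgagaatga
S100A4 (CACCTG, 164 bases before the start): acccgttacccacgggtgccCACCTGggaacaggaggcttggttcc
S100A4 had no AP-1 match in its window, and a window without a match says nothing about the factor.

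The 3 genes whose log2 levels over the 6 libraries were most like those of S100A4, among 9829 genes outside the S100 family, were PDLIM7 (Pearson r 0.997), ROBO4 (0.995) and RASSF7 (0.995). PDLIM7 stood at 50.1 and 48.0 CPM after NC mimic, 67.1 and 65.2 CPM after miR-200a and 68.2 and 91.4 CPM after miR-200a plus ELK3. With 6 libraries in 3 groups a high value is common: 318 of the genes searched had an r over 0.9.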

How the data were processed

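RNA of 6 MDA-MB-231 libraries was profiled by QuantSeq 3′ mRNA sequencing. The authors deposited raw read counts per gene symbol for each library. The submitters' processing notes name Bowtie2, edgeR and hg19, and their versions and roles are not given in the sources used here. Counts of lines that share a symbol were summed. Genes passing edgeR's filterByExpr (minimum count 10) were kept, 12650 in all, with TMM factors, and a quasi-likelihood model of the 3 groups was fitted to all 6 libraries (edgeR 4.0.16, limma 3.58.1, R 4.3.3), with Benjamini-Hochberg adjustment over all tested genes and a threshold of 0.05. The step was tested on simulated counts with the same spread in every group and with changes larger than those of the members. It therefore does not cover the wider spread of the plasmid group. CPM values are counts scaled to the TMM-adjusted library size. Totals ran from 3055915 to 4868004 counts, and intervals on low counts cover counting error only. The smallest exact permutation p for 2 libraries against 2 exceeds 0.05, so none is given. Alternatives were DESeq2 1.42.0, limma on quantile-normalised log2(count + 1), other filters and normalisations, the 2 compared groups alone, a replicate block and leaving out each library. The crossed block and the alternatives for partner genes were added after seeing the data. All 10 members were named, other S100 genes that passed the filter, and up to 6 partners with the smallest adjusted p. PLAU, ANXA2, AGER and TLR4 were named after their values were seen, 1 gene listed in the design was left out of the partner counts and is not reported here, and the other partners are given by counts. The members, lists and tests were chosen with earlier results of these data known. No protein sequences were used here.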

Additional observations from a re-analysis of the deposited data

How the results depend on the processing

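The number of the 6 tested S100 members called was 0, 0 and 1 for miR-200a against NC mimic, miR-200a plus ELK3 against miR-200a, and miR-200a plus ELK3 against NC mimic. DESeq2, its size factors within edgeR, a stricter filter (10 counts or more in every library), the replicate block and the block with crossed pairing (1 with 2) all gave 0, 0 and 1. Same-numbered libraries did not deviate together over all tested genes (correlations of -0.0045, -0.033 and -0.103 in the 3 comparisons). Such a correlation cannot exclude a shared batch, and the labels do not say how the replicates were made. With no filter it was 1 (S100A2), 2 (S100A6 and S100A10) and 3 (S100A2, S100A4 and S100A6). Upper-quartile normalisation gave 1 in the second comparison, the 2 compared groups alone gave 5 in the first, and limma gave 0 in the third. Leaving out 1 library gave 0 to 5, 0 to 4 and 0 to 5. The cause of these shifts was not tested. No called value changed sign. Among all genes, 34, 1637 and 1629 were called. This became 88 with DESeq2 in the first comparison, 230, 2490 and 2525 with no filter, 983, 542 and 587 with the compared groups alone, 4, 107 and 391 with limma, and 13 with the replicate block and 22 with the crossed block in the first. Leaving out 1 library gave 0 to 1010, 31 to 4684 and 96 to 4675. Partner calls (0, 3 and 3) ranged from 0 to 8, 0 to 14 and 0 to 14 over all alternatives, with 0, 4 and 2 under the replicate block, which lost IQGAP1 and S100A3 against NC mimic. Depth limits S100A14 and S100P, and 2 libraries per group limit every test.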
